A study of Mus musculus with 55 samples.

Results

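In mouse macrophages, 1516 promoter regions carried a peak of SREBP, the sterol regulatory element-binding protein, and no peak of LXR, the liver X receptor. They were picked from the 80096 regions made by merging all factor peaks of the series, of which 27772 overlapped an SREBP peak. A region was kept when its 200 bp window overlapped an SREBP peak by at least 1 bp, overlapped no LXR peak, and was annotated promoter-TSS in the deposited tables. The regions lay nearest to the starts of 1482 genes, with 33 genes holding 66 of the regions between them, so that some neighbouring regions share tags. Neither H3K27ac nor p300 values entered the choice.

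SREBPs are made as membrane proteins of the endoplasmic reticulum and are cut loose when cell sterols are low. They then enter the nucleus and switch on the genes of cholesterol and fatty acid synthesis and of lipid uptake, usually together with the factors NF-Y and Sp1 bound next to them. LXRs are nuclear receptors that sense oxidised cholesterol and turn on cholesterol export and Srebf1. In macrophages both factors shape the sterol content of the cell, and both meet the inflammatory programme that lipopolysaccharide (LPS) starts through TLR4. H3K27ac, an acetyl group on a lysine of histone H3, is found where promoters are active, and the coactivator p300 is among the enzymes that put it there.

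Bone marrow-derived macrophages of C57BL/6 mice were grown with L-cell medium as a source of M-CSF and starved of serum overnight before every treatment, controls included. H3K27ac and p300 were then mapped by chromatin immunoprecipitation sequencing (ChIP-seq) after the vehicle PBS, the milk sugar 3'-sialyllactose (3'SL, 100 µg/ml), LPS (10 ng/ml) or 3'SL with LPS, each for 2 h or 6 h. The SREBP list (27651 peaks, 1 library, a mix of SREBP antibodies) and the LXR list (24480 peaks, 2 libraries) came from other dishes treated for 18 h with the LXR agonist GW3965 (1 µM), so the peaks were not mapped under LPS or 3'SL. A p300 list (44251 peaks, 1 library) also came from macrophages given GW3965 for 18 h. A list of open chromatin by ATAC-seq (97113 peaks) came from re-analysed libraries of untreated macrophages and of macrophages given the TLR4 agonist KLA for 1 h. Both lists served to describe the regions. The age and sex of the mice were not given in the sources used here, and neither was whether replicates were separate animals or dishes, so p-values measure only the spread between these libraries.

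The 16 H3K27ac libraries held 4.2 to 39.6 M tags in all and the 14 p300 libraries 3.2 to 18.1 M tags. Replicates stood apart: H3K27ac libraries of replicate 1 had 28.5% to 41.3% of their tags in the regions and those of replicate 2 had 44.1% to 52.1%. For p300 the shares were 5.23% to 7.54% and 16% to 22.4%, against 3.43% in the p300 input. With PBS only replicate 2 was usable for p300, at 2 h and at 6 h, and for the 6 h time of H3K27ac, and a replicate 1 H3K27ac library of PBS with no time in its label was a group of its own. Promoters of 9 of 10 macrophage markers had a region, with a median H3K27ac of 299 tags per 10000000 in PBS. No promoter region was found for any of the listed T cell, B cell, dendritic cell or fibroblast markers, and S100a8 was the only neutrophil marker with one (33.9).

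The promoter sequences of the genes that carry the results below are shown first, since the SREBP site itself differs between them. Each is the 201-base window centred on the region, less any exon bases, read 5′ to 3′ on the strand of its gene from the mouse genome GRCm38 (mm10). Capitals mark CCAAT boxes (bound by NF-Y, on either strand) and matches to the sterol regulatory element (SRE) TCACNCCAC with up to 1 mismatch in its fixed bases. Hmgcs1 makes the first committed precursor of the mevalonate pathway (chr13:119690102-119690302, plus strand). Sqle (chr15:59314842-59315042, plus strand) oxidises squalene and Hsd17b7 (chr1:169969243-169969407, minus strand) acts late in sterol synthesis. Srebf2 (chr15:82147001-82147201, plus strand) encodes SREBP-2 itself and Insig1 (chr5:28071096-28071296, plus strand) the protein that holds SREBPs in the endoplasmic reticulum. Acss2 (chr2:155517683-155517883, plus strand) makes acetyl-CoA for lipid synthesis. Cxcl2 (chr5:90903496-90903696, plus strand), a neutrophil chemokine, is shown as a strongly LPS-induced region with neither motif in its window.
Hmgcs1: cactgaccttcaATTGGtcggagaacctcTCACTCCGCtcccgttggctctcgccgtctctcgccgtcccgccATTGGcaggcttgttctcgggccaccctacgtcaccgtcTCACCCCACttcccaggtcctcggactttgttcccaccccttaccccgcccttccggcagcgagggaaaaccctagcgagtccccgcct
Sqle: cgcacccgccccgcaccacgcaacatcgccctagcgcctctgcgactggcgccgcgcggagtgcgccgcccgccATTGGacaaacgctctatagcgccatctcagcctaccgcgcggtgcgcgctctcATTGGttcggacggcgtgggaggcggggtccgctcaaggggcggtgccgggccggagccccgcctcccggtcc
Hsd17b7: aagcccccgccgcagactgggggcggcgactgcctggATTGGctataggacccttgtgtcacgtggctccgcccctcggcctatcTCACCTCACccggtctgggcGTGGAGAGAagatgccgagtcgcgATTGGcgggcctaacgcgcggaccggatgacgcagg
Srebf2: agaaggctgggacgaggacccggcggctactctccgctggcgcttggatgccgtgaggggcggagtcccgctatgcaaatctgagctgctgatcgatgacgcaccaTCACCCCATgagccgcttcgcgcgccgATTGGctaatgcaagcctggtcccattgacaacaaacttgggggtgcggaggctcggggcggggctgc
Insig1: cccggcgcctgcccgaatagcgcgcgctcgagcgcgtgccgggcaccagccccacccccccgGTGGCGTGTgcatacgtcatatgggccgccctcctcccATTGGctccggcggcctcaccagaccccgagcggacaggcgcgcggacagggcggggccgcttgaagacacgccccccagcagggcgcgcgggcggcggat
Acss2: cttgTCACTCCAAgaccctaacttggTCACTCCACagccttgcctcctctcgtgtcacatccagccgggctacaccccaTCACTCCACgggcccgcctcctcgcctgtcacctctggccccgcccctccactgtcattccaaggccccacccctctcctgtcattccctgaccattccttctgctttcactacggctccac
Cxcl2: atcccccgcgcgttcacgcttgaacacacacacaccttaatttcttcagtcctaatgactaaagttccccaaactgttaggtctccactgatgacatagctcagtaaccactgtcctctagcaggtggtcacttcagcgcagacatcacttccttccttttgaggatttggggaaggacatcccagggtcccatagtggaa

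Hmgcs1 held 1 exact SRE and a pair of CCAAT boxes in these letters, and Acss2 held 2 exact SREs and no CCAAT box. Srebf2 and Insig1 each held 1 SRE with a mismatch and 1 CCAAT box, while Sqle held 2 CCAAT boxes and no SRE of either kind. Over the 1516 windows, an exact SRE (searched on both strands) was found in 66, or 4.35%. The same motif was in 1.86% of all promoter-TSS regions, in 2.85% of the promoters with both SREBP and LXR, and in 0.249% of the promoters with LXR alone. The distal SREBP regions without LXR were close to the promoter regions, at 4.09%. With 1 mismatch allowed, a setting added after the promoters of cholesterol genes had been looked at, the count rose to 473 (31.2%, against 22.1% of all promoter-TSS regions). A match describes the letters of the window and is not a measured site.

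The boxes that usually stand beside an SRE were found in a larger share of these windows than of all promoter windows. These shares are descriptions and were not tested. CCAAT was found in 32.7% of the windows and in 25.5% of all promoter-TSS regions, and the Sp1-type GC box GGGCGG in 49.6% against 45.0%, but it was in 51.0% of the promoters with LXR alone. Both together were in 17.5% against 11.3%, and at least 2 CCAAT boxes in 10.1% against 6.16%. The E-box CACGTG, which SREBP-1 can also bind, was in 11.4% against 8.99%, whereas the ETS motif CCGGAAG was less common (11.3% against 14.6%). The AP-1 motif TGACTCA was in 4.75% of the windows and in 13.7% of the distal SREBP regions without LXR. The LXR repeat DR4, searched as an exact match, was in 0 of the windows. It was in 0 windows of the other classes counted too, but the distal regions with LXR were not among those classes. The GC content of the windows differs between these classes (median 60.2% for the promoter SREBP regions, 59.7% for all promoter-TSS regions and 44.8% for the distal ones), and its part in the motif shares was not tested.

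**Figure D1:**
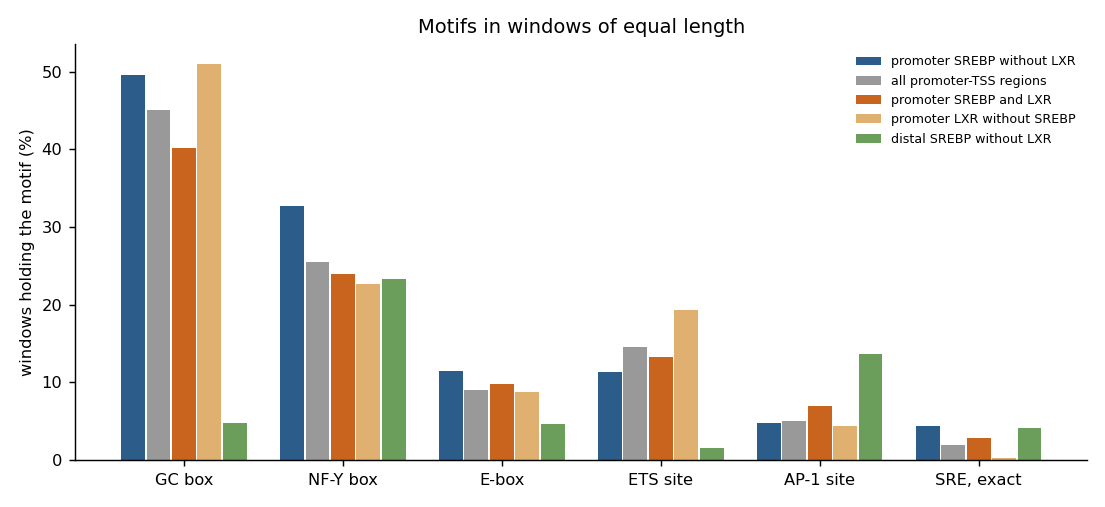
Share of windows (percent, y axis) that hold each of 6 motifs, in promoter SREBP regions without LXR (blue), in all promoter-TSS regions (grey) and in 3 other peak classes. The NF-Y box (CCAAT) stands at 32.7% in the blue bars against 25.5% in grey, and the exact SRE at 4.35% against 1.86%.

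Within the class the motif content differed between gene lists. Of the 29 genes of a list of cholesterol synthesis and uptake, 16 had a region of this class, 5 had a promoter with both SREBP and LXR (among them Cyp51, Fdps, Ggps1 and Lbr) and 2 had LXR alone. Among the 16, 14 windows held CCAAT, 10 held at least 2 CCAAT boxes (62.5%, against 10.1% of the whole class) and 12 held CCAAT with a GC box (75% against 17.5%). An SRE with up to 1 mismatch was in 8 of the 16, and only Hmgcs1 had the exact one. Of 31 lysosome genes 11 were in the class, and they looked different: 5 of the 11 held an E-box, the site that TFEB and its relatives also bind, and only Gla held CCAAT. The window of Lamp1, which encodes a major lysosomal membrane protein, held 6 E-boxes. These lists were drawn up with results of the same data known, so the counts describe the members and support no claim about the lists.

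The promoter-TSS annotation used in the choice places the regions at the start of genes. Of the 1516, 797 (52.57%) were centred within 100 bp of the annotated start, against 51.54% of all promoter-TSS regions. The median distance was 93 bp, against 95 bp, and 1177 lay upstream of the start, against 4920 of the 6240 promoter-TSS regions. Open chromatin in the ATAC list overlapped 1186 of them (78.23%), near the 79.79% of all promoter-TSS regions. The share was 91.84% for the promoters with both factors and 89.06% for those with LXR alone. A p300 peak overlapped 505 (33.31%), near the 29.28% of all promoter-TSS regions. This share was below the 61.49% of promoters with both factors and the 65.91% of distal SREBP regions without LXR. It was above the 19.07% of LXR-only promoters. These p300 peaks were mapped under the LXR agonist GW3965, and its part in these shares was not tested. Of the 16 cholesterol genes 15 had an ATAC peak and only Npc2, which carries cholesterol out of lysosomes, had a p300 peak.

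The regions carried strong H3K27ac and weak p300. As deposited, in tags per 10000000 in a 1000 bp window, the median over the 1516 regions was 65 to 125 in the 16 H3K27ac libraries and 6.15 to 7.0 in the 3 inputs with values. It was above the median of the distal SREBP regions without LXR (12.0 to 15.8) in 16 of 16 libraries, by a factor of 5.0 to 10.4. It was below the promoters with SREBP and LXR in 16 of 16, at 0.585 to 0.671 times their median, and below the LXR-only promoters at 0.745 to 0.826 times. Of the 1516 regions, 1385 had a mean over the libraries above 2 times their input level. For p300, in 200 bp windows, the median was 15.7 to 22.2 in the 8 replicate 2 libraries but 3.69 to 6.02 in the 6 replicate 1 libraries, below the 6.07 of the single p300 input. In replicate 1 the median p300 signal at these promoters did not stand above input. In every one of the 14 libraries p300 was lower at these promoters than at those with both factors (0.429 to 0.528 times), and the input gave 0.667 times. It was above the distal SREBP regions in 14 of 14 by 1.14 to 2.5 times, but the input itself gave 2.0 times, a value inside that range.

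**Figure D2:**
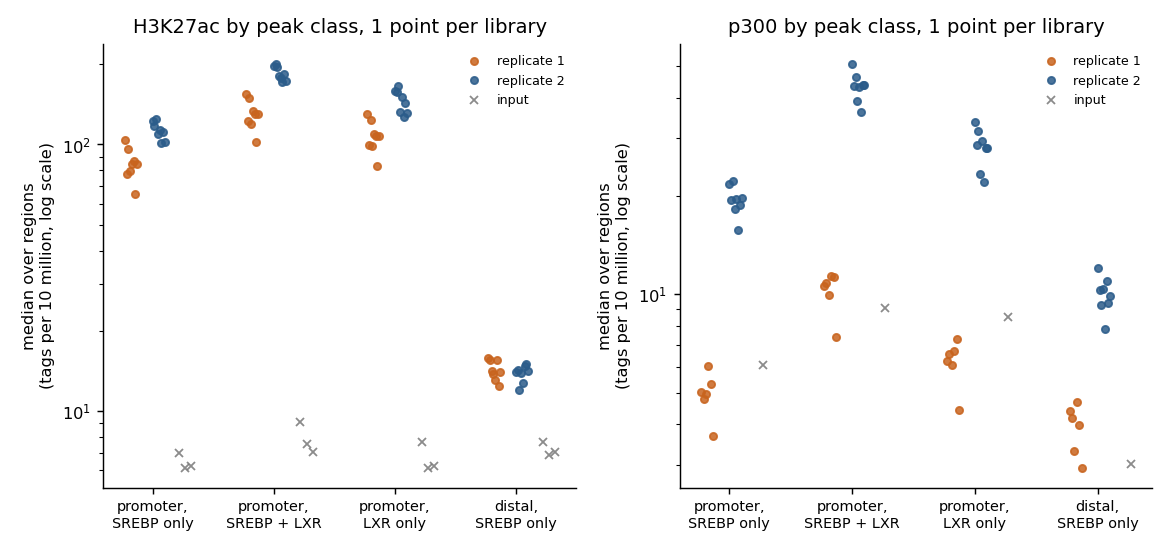
Median H3K27ac (left) and p300 (right) over the regions of each peak class, in deposited tags per 10000000 on a log axis, with 1 point per library (orange for replicate 1, blue for replicate 2, grey crosses for inputs). The promoter SREBP-only class holds 65 to 125 tags of H3K27ac, above the distal SREBP-only class in every library, and its p300 medians of replicate 1 lie below the input.

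Among the regions, those with a p300 peak had more H3K27ac than those without in 16 of 16 libraries, by 1.25 to 1.51 times (1.13 to 1.33 times in the inputs), and more p300 in 14 of 14, by 1.31 to 2.0 times (0.9 times in the input). Those with an ATAC peak had 1.11 to 1.39 times the H3K27ac of those without (1.0 times in the inputs). Regions with CCAAT had slightly less H3K27ac, at 0.853 to 0.965 times the others in 16 of 16 libraries. From here on values are tags per 10000000 rescaled to a common signal in the regions (normalised tags), which removes the overall difference between replicates, and changes are differences of log2(normalised tags + 1). The highest mean H3K27ac was at Apobec1 (876), which edits the apolipoprotein B message, followed by the less known 5031425E22Rik (846) and 1600020E01Rik (838), by Atp6v0c (811), a subunit of the proton pump of lysosomes, and by Ubb (784), which encodes ubiquitin. The highest mean p300 was at Cd68 (141), a lysosomal glycoprotein used as a macrophage marker, Hist1h4c (123), a histone gene, and Evi2 (120).

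After 2 h of LPS, H3K27ac rose at some promoters of the class, those of several inflammatory and interferon genes among them, and fell at a few others. Of 1493 regions that passed the filter on low counts, 55 rose and 7 fell (limma, adjusted p under 0.05). These are 3.68% and 0.469% of the class, while over all 48437 regions tested 2.86% rose and 1.97% fell. The rise share is near that background, and other promoter classes were similar: 4.69% rose and 1.67% fell where both factors bound, and 2.56% and 0.605% with LXR alone. The differences between classes were not tested. Replicates of the same number varied together, so the fit with the replicate as a block is given beside each count: it called 240 higher and 87 lower, against 11.8% and 12% of all regions. All 62 regions were called by both fits. Leaving out 1 library cut the count to 3 (LPS replicate 1), 5 (LPS replicate 2), 5 (PBS replicate 2) or 14 (PBS replicate 1), and the authors' own scaling gave 26.

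The 5 largest rises that passed were at Il27, Zbp1, D730005E14Rik, Gbp2 and Parp11. Il27, a cytokine subunit made by activated macrophages, had 7.06 and 15.7 normalised tags in the PBS libraries of replicates 1 and 2 and 179 and 90.7 in the LPS libraries (log2 change 3.47, SE 0.604, limma adjusted p = 0.011). Zbp1, a sensor of nucleic acids that can start necroptosis, had 30.0 and 60.8 with PBS and 639 and 321 with LPS (log2 change 3.37, SE 0.568, limma adjusted p = 0.010). Both were far above their PBS libraries in each replicate, with no overlap. Such separation follows in part from the call, which used these same libraries. Both LPS libraries were above both PBS libraries in 502 of the 1493 tested regions. Gbp2, an interferon-induced GTPase, had 68.0 and 83.4 with PBS against 1347 and 396 with LPS (3.26, limma adjusted p = 0.021). Parp11 had 23 and 60.8 against 571 and 225 (3.23, limma adjusted p = 0.035), and the unnamed transcript D730005E14Rik 34.4 and 87.3 against 698 and 442 (3.32, limma adjusted p = 0.013). In these 5 the LPS library of replicate 1 was higher than that of replicate 2, although the PBS library of replicate 1 was the lower one.

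Of the interferon list, 6 of 32 genes had a region of the class, and 5 of the 6 rose at 2 h (all 6 with the replicate block). Isg15, a ubiquitin-like modifier, went from 69.7 and 107 normalised tags to 663 and 500. Stat2, a signal transducer of the type I interferon receptor, went from 129 and 161 to 732 and 472, and Irgm1, an interferon-induced GTPase of autophagy, from 350 and 524 to 1574 and 966. Ifit3, which restrains viral RNA, had 44.1 and 67.7 with PBS and 649 and 222 with LPS and was called only with the block (log2 change 2.77, SE 0.798, limma adjusted p = 0.075, and 0.005 with the block). In each of these the lowest LPS library was above the highest PBS library, as it was in 502 of the 1493 tested regions of the class.

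Of the inflammatory list, 6 of 40 genes had a region of the class, 12 had a promoter with both SREBP and LXR, and 10 had one with LXR alone. Cxcl2 went from 15.0 and 17.7 normalised tags to 113 and 219 (log2 change 3.20, SE 0.449, limma adjusted p = 0.005). The NF-kB regulators Nfkbiz (30.9 and 69.6 to 241 and 377, log2 change 2.67) and Nfkbie (41.5 and 20.6 to 114 and 141, 2.08) rose as well, so that 3 of the 6 were called. Il1a, which encodes interleukin-1 alpha, had 35.3 and 0 normalised tags with PBS and 202 and 32.5 with LPS, and was called with the block alone (log2 change 3.78, SE 2.11, limma adjusted p = 0.382 without it). Here the LPS library of replicate 2 did not reach the PBS library of replicate 1. Il10, an anti-inflammatory cytokine, had 59.1 and 128 with PBS and 83.3 and 98.3 with LPS, with overlapping groups. Other rises, picked as examples after their values were seen, were Tank (log2 change 1.71), Tbk1 (1.56), which phosphorylates IRF3, Jak2 (1.60), a kinase of cytokine receptors, Trim56 (1.55), an antiviral ubiquitin ligase, Slfn2 (1.71) and Tnfrsf1b (1.06), a TNF receptor.

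The 7 falls at 2 h lay at genes of no shared function. Slco2b1, an organic anion transporter, had 27.4 and 78.5 normalised tags with PBS and 0.677 and 5.29 with LPS (log2 change -3.87, SE 0.799, limma adjusted p = 0.021). Gm15569 had 448 and 571 against 71.7 and 86.2 (-2.67, limma adjusted p = 0.008), A930024E05Rik 65.3 and 98.1 against 10.8 and 21.9 (-2.30, limma adjusted p = 0.024), and Enc1, an actin-binding protein, 203 and 246 against 61.6 and 88.5 (-1.59, limma adjusted p = 0.035). Gcnt1, a branching enzyme of O-glycans, had 44.1 and 42.2 against 7.45 and 9.83 (-2.21, limma adjusted p = 0.040) in 1 of its 2 overlapping regions. Gpr137b-ps and Tmem242 were the other falls. In all 7 both LPS libraries were below both PBS libraries, but the 7 were called on these same libraries. How many of all tested regions were separated in this direction was not counted.

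**Figure D3:**
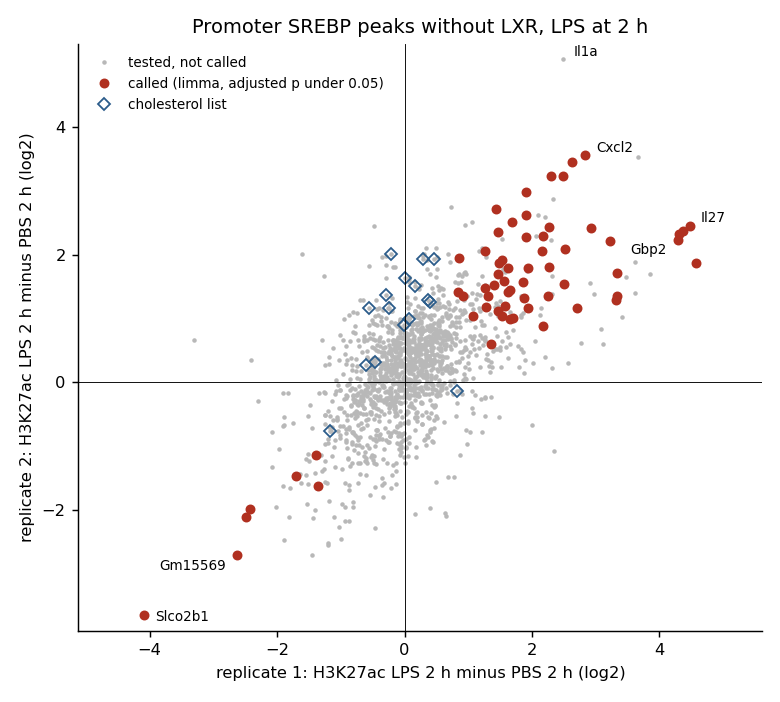
Change of H3K27ac with LPS at 2 h (log2 LPS minus PBS) in replicate 1 (x axis) and replicate 2 (y axis), 1 point per promoter SREBP region, with the 62 called regions in red and the 16 cholesterol genes as blue diamonds. All 62 red points, which were called on these same libraries, have the same sign in both replicates, as do 1053 of all 1493 tested regions. Of the 16 diamonds, 14 lie above 0 in replicate 2 against 8 in replicate 1.

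The p300 signal rose at a few of the same promoters. At 2 h of LPS, 5 of 1366 regions tested rose in p300 and 0 fell, against 1.19% and 0.139% of the 37481 regions of the p300 table. With the replicate block 42 rose and 5 fell, against 5.33% and 2.12%. On simulated p300 counts with few changed regions that fit made more false calls than its threshold allows, so its p300 calls are less certain. These comparisons rest on a lone PBS library at each time, assumed to vary like the other groups. Without LPS replicate 1 the count at 2 h was 1, and without LPS replicate 2, by edgeR or with the authors' scaling it was 0. Nfkbiz had 0 tags with PBS and 34.7 and 73.4 normalised tags with LPS (limma adjusted p = 0.007). The ratio per depth was 9.89 when the PBS library was set to a floor of 3 tags, and the 95% exact counting interval from 0 tags starts at 7.86-fold. Aig1, a hydrolase of fatty acid esters, had 2 tags with PBS against 148 over the LPS libraries, a ratio per depth of 26.8 (95% exact counting interval 7.28 to 223). Agrn, a basement membrane proteoglycan that lies next to Isg15, gave a ratio of 14.8 (3.98 to 125). These intervals leave out the spread between libraries and are too narrow for it. The variance between the LPS libraries of 2 h was 11.1 times that of counting (chi-square per degree of freedom). Gadd45b, a stress-response gene, had 28.7 normalised tags with PBS and 191 and 170 with LPS (log2 change 2.61, limma adjusted p = 0.038), and Nfkbie 23.3 against 149 and 113 (2.43, limma adjusted p = 0.040). In all 5 both LPS libraries were above the PBS library, but the 5 were called on these same libraries. The share over all tested regions was not counted.

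Nfkbiz, Nfkbie and Gadd45b were called for both marks. Of the 55 regions with a rise of H3K27ac, 53 were tested for p300 and 50 of them had a p300 change above 0, with a median log2 change of 2.03, while the median over all regions of the class was 0.0325. All 7 regions with a fall of H3K27ac had a p300 change below 0, with a median of -1.05. With the replicate block 36 regions were called for both marks and all 36 moved in the same direction. The marks were measured in separate libraries with no shared control. A p300 peak was present at 25 of the 55 rises and 4 of the 7 falls, so that 5.81% of the tested regions with a p300 peak and 3.32% of those without were called, a difference that was not tested.

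**Figure D4:**
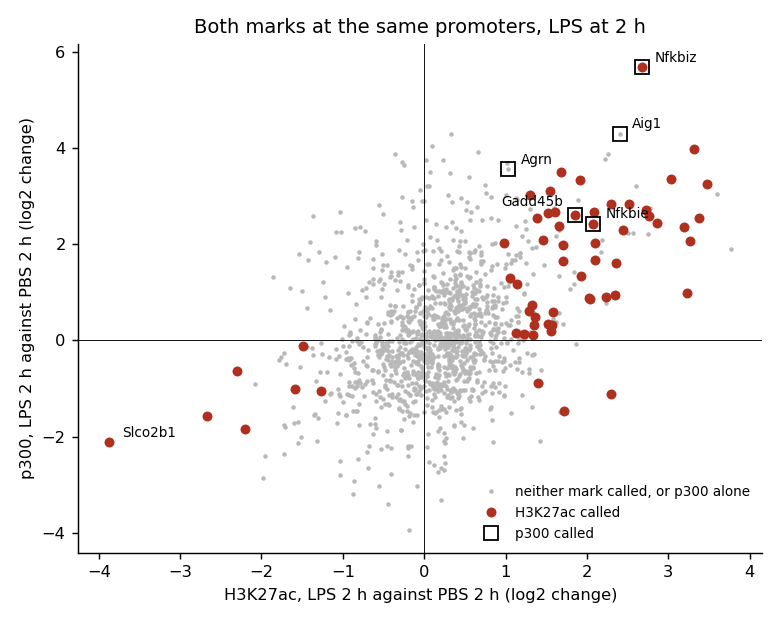
Log2 change with LPS at 2 h of H3K27ac (x axis) and p300 (y axis) at the same promoter SREBP regions, with the regions called for H3K27ac in red and those called for p300 in squares. Of the 53 red points on the right 50 lie above 0 on the p300 axis, and the 7 on the left all lie below 0.

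After 6 h of LPS fewer regions passed. Against the lone PBS library of that time, H3K27ac rose at 1 region and fell at 0 of 1493, against 0.291% and 0.0454% of all regions. With the replicate block 46 rose and 29 fell, against 4.85% and 4.48% of all regions, and 59 of these 75 had also been called at 2 h with the block. The called region was Slc31a2, a copper transporter of lysosomes and endosomes, with 26.7 normalised tags in PBS and 268 and 288 with LPS (log2 change 3.33, SE 0.56, limma adjusted p = 0.041). It had been called at 2 h as well (39.7 and 19.6 with PBS, 152 and 163 with LPS). Slfn2 (363 with PBS against 937 and 1123 with LPS) and Ttc39c (48.4 against 165 and 156) did not pass, and neither did Enc1 (303 against 55.3 and 74.0) or Ephx1, which encodes epoxide hydrolase (25.8 against 5.46 and 1.25). All 4 passed with the block, and so did both regions of E330020D12Rik, whose region with the smaller p had 292 with PBS against 112 and 122 with LPS. At 6 h 0 regions were called for p300, with 63 at an unadjusted p under 0.05 and 1 by DESeq2, and 0.128% of all regions were called. Among all 37481 regions tested 3532 had an unadjusted p under 0.05. With the block 8 regions of the class rose and 1 fell, against 2.02% and 0.582%. Among them were Slc6a19, an amino acid transporter (4.43 normalised tags with PBS against 45.6 and 47.9 with LPS), Ifit3 (0 against 39.6 and 21.8) and the fall at Cadm1, an adhesion molecule (45.1 against 5.94 and 1.09).

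No region differed between LPS at 6 h and at 2 h in either mark (limma, 0 of 1493 and 0 of 1366, against 0% and 0% of all regions). At an unadjusted p under 0.05 there were 95 H3K27ac and 52 p300 regions of the class. Among all regions tested there were 2479 of 48437 and 1997 of 37481. DESeq2 called 1 region of the class for H3K27ac and 0 for p300. With the block H3K27ac rose from 2 h to 6 h at 8 regions and fell at 12, against 1.33% and 0.334%, and 0 regions of the class were called for p300, against 0.235% of all regions. Gm15569 was among the 8 (log2 change 1.52, limma adjusted p = 0.005 with the block): after 71.7 and 86.2 normalised tags at 2 h of LPS it had 195 and 265 at 6 h, still below its PBS levels. Hivep2, a zinc finger protein that binds NF-kB-like sites, was among the 12 (-1.56, limma adjusted p = 0.021 with the block), with 297 and 279 at 2 h and 75.1 and 125 at 6 h. The effect of LPS itself was not found to differ between the times at any region of the class, in the fit with or without the block.

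At the 16 promoters of cholesterol synthesis and uptake, H3K27ac was mostly higher with LPS at 6 h. Their log2 changes at that time lay above 0 in 15 of 16, with a median log2 change of 1.43, while the median over all regions of the class was -0.0145. No single one passed in the limma fit without the block, and DESeq2 called 1. With the block 5 rose and 0 fell (31.2% called), against 5.02% called in the class. Over all regions 4.85% rose and 4.48% fell with the block. Among the 5 were Sqle, Hsd17b7, Stard4, which carries cholesterol within cells, and Pmvk of the mevalonate pathway. The median with the block was 0.967. The median ranged from 0.85 to 1.85 over the other settings, the lower value without replicate 1 of LPS 6 h. At 2 h the median was 0.534 with 13 of 16 above 0. Both LPS libraries of 2 h were above both PBS libraries in 5 of the 16, and in 502 of the 1493 tested regions of the class. With the block 4 of the 16 rose at that time, among them Hmgcs1, Pmvk and Stard4, and Mylip, an LXR target that encodes a ubiquitin ligase, fell. The called share of the 16 was 31.2%, against 21.9% of the class. Over all regions 11.8% rose and 12% fell with the block, and the difference was not tested.

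Sqle had 26.7 normalised tags in the PBS library of 6 h and 156 and 118 in the LPS libraries (log2 change 2.30, SE 0.732, limma adjusted p = 0.210, and 0.014 with the block). Hsd17b7 had 19.2 against 96.3 and 84.0 (2.17, SE 0.615, limma adjusted p = 0.159, and 0.014 with the block). In each of these 2 both LPS libraries were above the PBS library of that time. Hmgcs1 had 68.4 against 274 and 148 (1.54, limma adjusted p = 0.347, and 0.053 with the block). Stard4 had 32.5 against 147 and 117, and Pmvk 25 against 92.8 and 72.7. The sterol enzymes Fdft1 (79.2 against 287 and 138), Msmo1 (34.2 against 150 and 80.2), Sc5d (30 against 111 and 47.6), Lss (10 against 64.9 and 16.3) and Nsdhl (25 against 49.2 and 38.9) were higher in both LPS libraries too, without passing. Both LPS libraries of 6 h were above the PBS library of 6 h in 14 of the 16, and in 527 of the 1493 tested regions of the class. They were above all 4 PBS libraries in 6 of the 16, and in 218 of the 1493. Npc2 (198 against 259 and 244), Mvd (89.2 against 136 and 110) and Tmem97 (66.7 against 82.6 and 63.9) differed less, and Mylip was the single one of the 16 with a change below 0 (110 against 81.3 and 66.5).

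The size of this difference varied with the PBS library it was set against. Replicate 2 of PBS was low at these promoters: in 12 of the 16 the lowest of all H3K27ac libraries was a PBS library of replicate 2, and the median over the 16 was 46.6 and 33.3 normalised tags in its 2 h and 6 h libraries, against 95.8 in the 2 h library of replicate 1 and 79.2 in the replicate 1 PBS library with no time. Within replicate 1 the median log2 difference of the 16 promoters at 2 h was 0.00217 with 8 of 16 above 0, and within replicate 2 it was 1.22 with 14 of 16. The replicate 1 libraries titled 2 h also carry a label with a shorter time, and its part in this split was not tested. Without the PBS 2 h library of replicate 2 the median at 2 h was -0.0845 with 7 of 16 above 0. At 6 h the replicates were closer to each other: the median difference was 0.871 in replicate 2 (14 of 16 above 0) and 0.806 in replicate 1 when set against its PBS library with no time (15 of 16). The libraries that also held 3'SL, which share no library with these, can be set beside them: the median of LPS with 3'SL minus 3'SL alone was 0.116 and 0.514 at 2 h in replicates 1 and 2, and 0.753 and 0.948 at 6 h with 15 and 14 of 16 above 0. Over all regions of the class these 6 h medians were 0.148 and 0.0926.

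**Figure D5:**
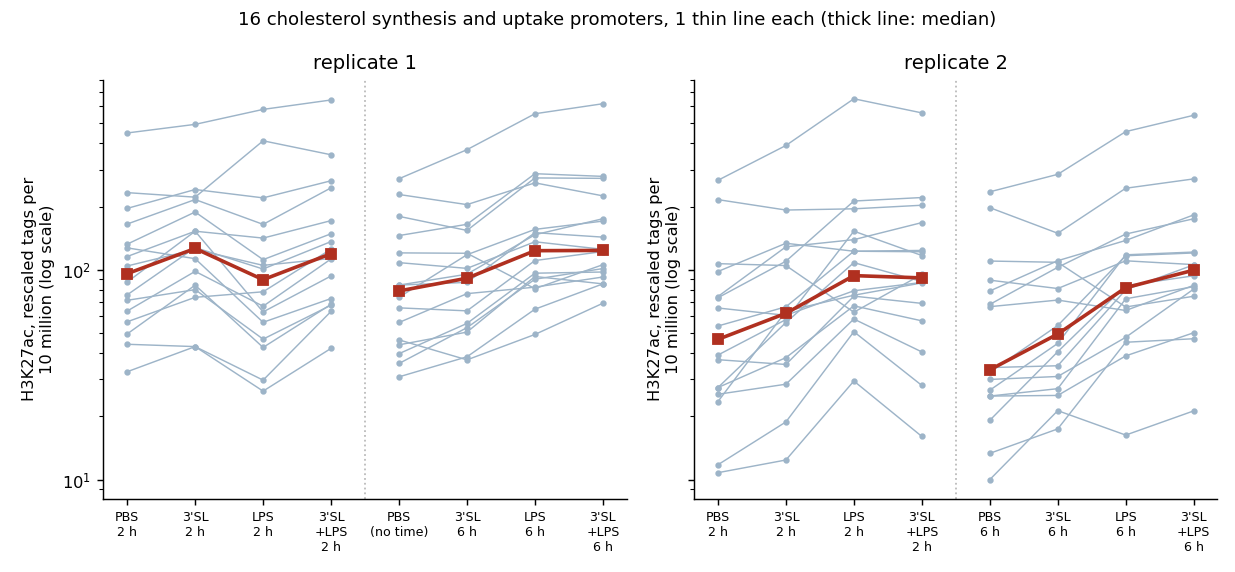
H3K27ac (normalised tags per 10000000, log axis) at the 16 promoters of cholesterol synthesis and uptake, 1 thin line per gene and the median as a thick red line, for each treatment in replicate 1 (left) and replicate 2 (right), where replicate 1 has a PBS library with no time in place of PBS 6 h. The medians at 6 h of LPS (123 and 82.1) lie above the PBS medians beside them (79.2 and 33.3), while at 2 h LPS lies above PBS in replicate 2 alone.

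For p300 the direction at these promoters depended on the fit. At 6 h the p300 change lay above 0 in 13 of the 15 that were tested, with a median of 0.519, but in the fit with the block the median was 0.0308 with 8 of 15 above 0. With the authors' scaling, under which the median over all regions tested was -1.05, it was -0.525 with 5 of 15 above 0. No p300 change of the list was called in any fit listed here. Sqle had 12.4 normalised tags of p300 in the PBS library of 6 h and 49.5 and 12.0 with LPS, and Fdft1, which makes squalene, 26.6 against 61.4 and 7.61.

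Genes that control SREBP itself were also in the class. Of the 7 genes of SREBP processing, Srebf2 and Insig1 were in the class, and Insig2 and Srebf1 had a promoter with both factors. Srebf2 had 257 and 106 normalised tags of H3K27ac with PBS at 2 h and 329 and 367 with LPS (log2 change 1.07, SE 0.402, limma adjusted p = 0.171, and 0.011 with the block), and at 6 h 114 against 303 and 262 (1.30, limma adjusted p = 0.295, and 0.060 with the block). Insig1 had 328 and 190 with PBS and 344 and 389 with LPS at 2 h, and 178 against 284 and 380 at 6 h, and was not called. p300 at Srebf2 (32.2 with PBS and 111 and 89.7 with LPS at 2 h) was not called either.

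The 6 fatty acid and lipid genes of the class were mixed. Acss2 had 24.7 and 22.6 normalised tags with PBS and 48.1 and 50.7 with LPS at 2 h (log2 change 1.03, SE 0.392, limma adjusted p = 0.176, and 0.033 with the block). Fads1, a desaturase of polyunsaturated fatty acids, had 110 and 117 with PBS and 28.4 and 71.8 with LPS (-1.30, SE 0.438, limma adjusted p = 0.126, and 0.014 with the block). Acly, which supplies acetyl-CoA from citrate, had 79.4 and 50.0 with PBS and 90.7 and 105 with LPS. Scd1, a desaturase and LXR target, was weakly marked in every library (3.33 to 31.3), and Fads2 and Pcyt2 were not called at either time. At 6 h 5 of the 6 changes lay above 0 with a median of 0.759, and none was called with or without the block.

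The 11 lysosome genes had a median change of -0.274 at 2 h and -0.165 at 6 h, and Laptm5, a lysosomal protein of blood cells, was the single one to fall with the block (110 and 157 normalised tags with PBS, 56.9 and 34 with LPS at 2 h, log2 change -1.55). The 4 genes of the LXR list (Lpl, Mylip, Pltp and Scd1) had a median of -0.439 at 2 h, with Mylip called lower with the block. The 4 housekeeping genes had a median of 0.585 at 2 h with 4 of 4 above 0, larger than the 0.534 of the cholesterol list at that time, and Actb and Pgk1 rose with the block. Pgk1, a glycolytic enzyme, had 68.9 and 66.7 with PBS and 156 and 282 with LPS at 2 h (1.62, limma adjusted p = 0.001 with the block). The presence of a motif can be set against the changes as well: the 65 tested regions with an exact SRE had a median of 0.164 at 2 h and 0.119 at 6 h, and those with CCAAT 0.166 and -0.00223, near the medians of the whole class (0.189 and -0.0145).

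No region of the class was called for 3'SL in either mark. For H3K27ac 0 of 1493 were called for 3'SL against PBS at 2 h (5 at an unadjusted p under 0.05) and at 6 h (7), and when 3'SL and LPS together were compared with LPS alone, at 2 h (2) and at 6 h (5). For p300 0 of 1366 were called in the same 4 comparisons (43, 14, 15 and 23). The unadjusted counts among all 48437 regions were 293, 699, 192 and 316 for H3K27ac, in the same order. Among all 37481 regions they were 1805, 604, 465 and 922 for p300. Over all regions tested limma called 0% in each of the 8 comparisons. edgeR, DESeq2 and the fits with the replicate block called 0 of the class as well. Over all regions the limma fit with the block called 0.157% for p300 with 3'SL at 2 h, 0.00534% at 6 h, and 0% in the other 6 comparisons. The regions with the smallest p were mostly at low levels, such as Gpr171 for 3'SL at 2 h (1.77 and 0.981 normalised tags of H3K27ac with PBS, 7.31 and 10.6 with 3'SL, limma adjusted p = 1.0) and Bmyc for 3'SL with LPS at 6 h (3.41 and 1.25 against 10.4 and 12.2). D330050G23Rik had 78.4 with PBS and 39.1 and 34.9 with 3'SL at 6 h. A930024E05Rik, which fell with LPS at 2 h to 10.8 and 21.9, had 41.6 and 57.5 when 3'SL was present (log2 change 1.60, SE 0.493, limma adjusted p = 1.0).

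At the cholesterol promoters the 3'SL changes in H3K27ac were mostly above 0. They were so in 14 of 16 at 2 h (median 0.418, against 0.102 over all regions of the class) and in 15 of 16 at 6 h (0.614 against -0.0568), and none was called. The lone PBS library of 6 h was the replicate 2 library that was low at these promoters. Within replicates 1 and 2 the median difference was 0.383 and 0.451 at 2 h, against 0.0403 and 0.162 over the class. At 6 h it was 0.194 in replicate 2, against 0.0806 over the class, the only replicate with a PBS library of that time. At 6 h the fit with the block gave a median of 0.342 with 13 of 16 above 0. In the presence of LPS, 3'SL gave a median H3K27ac change of 0.174 at 2 h and 0.154 at 6 h, against 0.08 and 0.0929 over all regions of the class. For p300 the median change with 3'SL against PBS at 2 h was -0.213 with 5 of 15 above 0, and -0.47 with 3 of 15 with the block. At 6 h it was 0.108 with 10 of 15 above 0, and -0.174 with 4 of 15 with the block. Over the class the p300 medians without the block were -0.184 and -0.267.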

How the data were processed

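Per the submitters' processing notes, reads were aligned with Bowtie2 to mm10 and peaks and tags handled with HOMER and DESeq2, with versions not given in the sources used here. The deposited signal gives, for every region, the authors' HOMER tag coverage per 10000000 tags, and whole tags were recovered for all values within 0.05. The regions and gene lists were chosen with earlier results of these data known. H3K27ac (16 libraries, 9 groups) and p300 (14 libraries, 8 groups) were each fitted with limma 3.58.1 in R 4.3.3 on log2(value + 1) of TMM-rescaled signal, after edgeR's filter (minimum count 10), with Benjamini-Hochberg adjustment over all 48437 and 37481 regions and a threshold of 0.05. Alternatives were a replicate block, edgeR 4.0.16 and DESeq2 1.42.0 on recovered tags, other scaling, a pseudocount of 5, no filter, other region rules and leaving out each library. On simulated data the fits without the block missed most changes, more so for p300, and the p300 fit with the block exceeded its nominal rate of false calls, so a count of 0 does not show that nothing changed. The simulation changed a smaller share of regions than the LPS fits at 2 h called, so its rates need not hold for these data.

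Titles gave treatment and time, because in some H3K27ac libraries another label names a different time or vehicle. The replicate 1 libraries titled 2 h carry a label with a shorter time. A replicate 2 library titled 3'SL with LPS at 2 h carries a label of the vehicle PBS. Same-numbered libraries deviated together in every pair of groups (correlation 0.447 to 0.669 over 21 H3K27ac pairs and 0.198 to 0.438 over 15 p300 pairs), so the replicate numbers were taken to pair the libraries. The text names the members of the cholesterol, fatty acid and SREBP processing lists, except a few genes that are counted but not reported here by name, the 5 regions with the largest changes in each direction that passed each LPS comparison, and, where none passed, those with the smallest p. The interferon, inflammatory and remaining examples were chosen after their values were seen. The total per library limits the precision, the intervals and the floor stand for counting error alone, and 5 columns that matched no sample were not used. A p65 list, of which 2.775% overlapped ATAC peaks, was not used to describe regions, and 6 members came from merged regions of that list alone. Nearest genes are those of the authors' annotation, and divergent genes share a promoter.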

Additional observations from a re-analysis of the deposited data

How the results depend on the processing

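The H3K27ac count for LPS at 2 h (62 regions) was 26 with the authors' scaling, 30 with no filter on low regions, 125 with DESeq2, 327 with the replicate block and 323 with edgeR and the replicate block, and 3 to 14 when 1 library was left out. For LPS at 6 h (1 region) it was 75 with the replicate block, 66 with edgeR and the block, 0 with edgeR, 21 with DESeq2, 3 within 1000 bp of the start, 2 without the regions of the p65 list alone, a setting added after seeing the data, and 0 to 0 when 1 LPS library was left out. For 6 h against 2 h of LPS (0) it was 20 with the replicate block, 14 with edgeR and the block and 1 with DESeq2. The p300 count at 2 h (5) was 0 with the authors' scaling, 3 with no filter, 47 with the replicate block, 0 with edgeR, 26 with edgeR and the block, 10 within 1000 bp of the start, and 0 to 1 without 1 LPS library. At 6 h (0) it was 9 with the block, 11 with edgeR and the block, 1 with DESeq2 and 1 within 1000 bp. For 6 h against 2 h of p300 (0) it was 1 with edgeR and the block. The SRE count of 66 became 473 with 1 mismatch. The cause of these differences was not tested. The median H3K27ac change of the cholesterol list at 2 h (0.534) turned to -0.0845 without PBS replicate 2, and its p300 medians turned from 0.203 to -0.194 at 2 h with the block and from 0.519 to -0.525 at 6 h with the authors' scaling. No called region changed direction. Of the 68 called region results, the block kept all 68, DESeq2 66, edgeR 50, no filter 34 and the authors' scaling 27. Apart from the calls given beside the results, the block added no call in the class for 3'SL, but it turned the p300 median of the cholesterol list for 3'SL at 6 h from 0.108 to -0.174. The low p300 signal in replicate 1 and the lone PBS libraries limit the p300 and 6 h comparisons.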
